A study of Mus musculus with 16 samples.

Results

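miR-199 and miR-214 were measured in extracellular vesicles, the small membrane-bound particles that cells shed, recovered from mouse bronchoalveolar lavage fluid. The 6 mature arms described are mmu-miR-199a-5p, mmu-miR-199a-3p, mmu-miR-199b-5p, mmu-miR-199b-3p, mmu-miR-214-3p and mmu-miR-214-5p (the prefix for mouse is left out below), taken by name from the 1907 mouse miRNAs of the deposited table. All 6 were above 0 in all 16 libraries, and all 6 passed the filter on low values that left 325 miRNAs for testing (10 CPM or more in at least 4 libraries). CPM is here a miRNA's share of the miRNA reads of its library, scaled to a common total. The 2 miR-199 3p rows are read from identical mature sequences and are treated as 1 signal, which leaves 5 distinct arms.

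The study set bleomycin lung injury against saline in syndecan-1 knockout and wild-type mice. Syndecan-1, encoded by Sdc1, is a cell-surface heparan sulfate proteoglycan of epithelial cells. There were 4 libraries in each of 4 groups. The bleomycin knockout group was C57BL/6-Sdc1-/- mice recorded with bleomycin for 21 days. The bleomycin wild-type group was C57BL/6 mice with the same treatment, and the normal knockout and normal wild-type groups had the same strains with PBS in place of bleomycin. The knockout is labelled for the strain as a whole, and no cell-type-specific driver is named. The sources used here do not give age, sex, dose, route or any pooling of animals. A miRNA table cannot show the Sdc1 transcript, so the genotype labels were not checked against it. The labels also do not say that each library came from another mouse, so every p-value measures the spread between these libraries, which may be technical.

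As background, a miRNA gene is transcribed as a hairpin, and each strand of the hairpin can become a mature arm, named 5p or 3p. The arm is loaded into an Argonaute protein and pairs with messenger RNAs mainly through its seed, bases 2 to 8. miR-199a and miR-214 are cut from Dnm3os, a long non-coding transcript antisense to the dynamin 3 gene that is known from mesenchymal cells, and the transcription factor Twist1 is known to drive it. In lung fibroblasts miR-199a-5p is known as a repressor of caveolin-1 that is raised by the cytokine TGF-beta. From human cancer cells miR-199a-3p is known as a repressor of mTOR. Bleomycin is a standard agent for provoking fibroblast activation and scarring in mouse lung.

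The mature sequences of 5 of the 6 arms were found in the RefSeq miRNA table (build GRCm38.p6). They are shown because they decide which arms can be told apart by sequencing and which share a seed, given in capitals.
miR-199a-5p: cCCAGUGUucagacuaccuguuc
miR-199a-3p: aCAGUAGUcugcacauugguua
miR-199b-3p: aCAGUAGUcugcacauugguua
miR-214-3p: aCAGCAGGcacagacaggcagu
miR-214-5p: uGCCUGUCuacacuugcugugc
miR-761: gCAGCAGGgugaaacugacaca
The miR-199a-3p and miR-199b-3p sequences were the same base for base. miR-761, from chromosome 4, was the other table entry with the miR-214-3p seed. It was above 0 in 1 of 16 libraries, with 2 reads (0.580 CPM) in bleomycin knockout library 1, so nearly all reads with that seed were miR-214-3p.

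The hairpins are shown to place the arms on the genome, with the mature arms named above in capitals (RefSeq, GRCm38.p6).
Mir199a-2: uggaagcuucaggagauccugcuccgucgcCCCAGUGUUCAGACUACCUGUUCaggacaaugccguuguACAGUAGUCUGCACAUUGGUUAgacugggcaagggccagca
Mir214: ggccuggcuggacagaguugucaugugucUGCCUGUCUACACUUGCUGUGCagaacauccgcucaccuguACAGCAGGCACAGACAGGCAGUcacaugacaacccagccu
Mir199a-1: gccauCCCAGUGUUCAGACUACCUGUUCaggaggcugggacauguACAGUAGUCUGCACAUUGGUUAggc
Mir199b: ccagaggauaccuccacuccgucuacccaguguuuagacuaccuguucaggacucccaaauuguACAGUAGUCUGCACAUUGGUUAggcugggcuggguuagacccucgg
Mir199a-2 lies at chr1:162217814-162217923 and Mir214 at chr1:162223368-162223477, both on the plus strand with 5444 bases between them. In the GENCODE M21 annotation of the same build both lie in an exon of Dnm3os (chr1:162217623-162225550, plus strand), which itself lies in an intron of Dnm3 on the other strand (chr1:161982453-162478034). Mir199a-1, at chr9:21496495-21496564 on the minus strand, lies in an intron of dynamin 2, Dnm2 (chr9:21424908-21507759, plus strand). Mir199b, at chr2:32318460-32318569 on the plus strand, lies in an intron of dynamin 1, Dnm1 (chr2:32308471-32353338, minus strand). A miR-199a-5p read can thus come from Mir199a-2 or Mir199a-1, and a miR-199-3p read from any of the 3 miR-199 genes. miR-214 has 1 gene. The Mir199b stretch that matches miR-199a-5p differs from it at a single base outside the seed, so both 5p arms share the seed CCAGUGU. The sources used here do not say whether read matching kept those arms apart, so the miR-199a-5p and miR-199b-5p rows may share some reads.

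The deposited table splits the reads of the shared 3p sequence over its 2 rows. The miR-199b-3p row held 25.1% of the reads of both rows over all libraries, and 22.7 to 27.2% in single libraries. In 15 of 16 libraries the exact 95% binomial interval held the pooled share, the exception being normal wild-type library 2 with 22.7% (20.8 to 24.7%). The proportion was therefore nearly fixed whatever the group, and the 2 rows say nothing separate about the miR-199a and miR-199b genes. Reads copied by PCR are not separate molecules, so these intervals and the limits given for depth describe counting error alone.

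**Figure D1:**
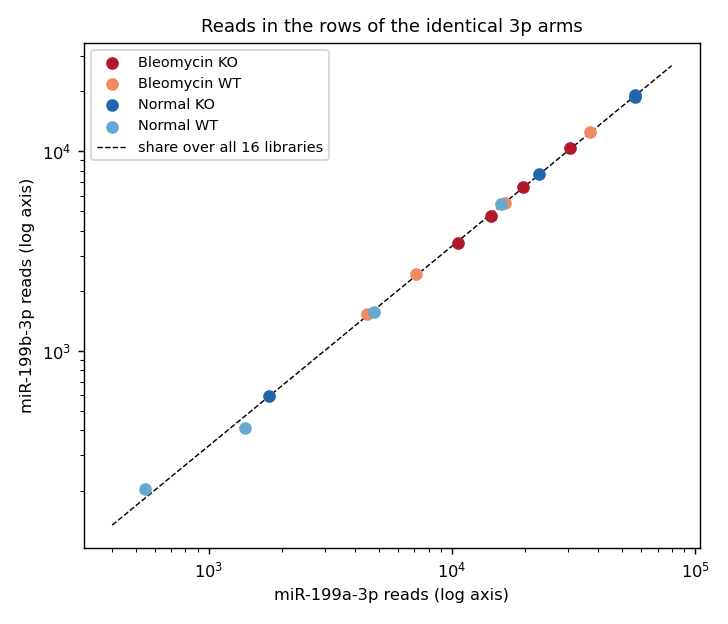
Reads in the miR-199b-3p row (vertical, log axis) against reads in the miR-199a-3p row (horizontal, log axis), 1 point per library, coloured by group; the dashed line is the share over all 16 libraries, 25.1% in the miR-199b-3p row. Bleomycin and normal, knockout and wild-type libraries lie along the same line.

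Depth, recovered as whole miRNA reads, ran between 3450027 and 7802229 reads in bleomycin knockout libraries and between 2202990 and 7050234 in bleomycin wild-type libraries. It ran between 2753095 and 12837837 in normal knockout libraries and between 1094908 and 9062406 in normal wild-type libraries. The least covered arm, miR-214-5p, had 3 to 630 reads per library, miR-214-3p 37 to 2300, and miR-199a-5p 358 to 47356. In normal wild-type library 1 the limit that a count of 0 allows, 3 reads, is 2.74 CPM, and that is the level recorded there for miR-214-5p. A share of vesicle RNA does not say whether more vesicles came from a cell type, whether each carried more of the miRNA, or whether other miRNAs became scarcer, and these cannot be told apart.

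Together the 6 arms took 1.20 ± 0.282% of reads in bleomycin knockout vesicles and 1.11 ± 0.387% in bleomycin wild-type vesicles. They took 0.696 ± 0.419% in normal knockout and 0.200 ± 0.141% in normal wild-type vesicles (SD, n = 4 each). miR-199a-5p had a median abundance rank of 29.5 in bleomycin knockout, 27.5 in bleomycin wild-type, 55.5 in normal knockout and 101.5 in normal wild-type libraries. The combined share was thus lowest, on average, in normal wild-type vesicles, with a normal knockout mean between that and the bleomycin groups.

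miR-199a-5p, the arm known for caveolin-1, had 3355, 4013, 3831 and 6719 CPM in bleomycin knockout libraries 1 to 4 and 3166, 4784, 3641 and 6717 CPM in bleomycin wild-type libraries 1 to 4. It had 1798, 498, 1823 and 1045 CPM in normal knockout libraries and 327, 408, 282 and 773 CPM in normal wild-type libraries. Every bleomycin library lay above every normal library of either genotype, as was so for 25 of the 325 tested miRNAs (7.69%). Group means were 4480 ± 1518, 4577 ± 1580, 1291 ± 640 and 447 ± 223 CPM for bleomycin knockout, bleomycin wild type, normal knockout and normal wild type (SD, n = 4 each).

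The shared miR-199 3p arm, known for mTOR, is given by its larger row, miR-199a-3p. It had 3055, 3927, 3329 and 4435 CPM in bleomycin knockout and 3664, 2637, 2036 and 5247 CPM in bleomycin wild-type libraries. Normal knockout libraries had 4564, 639, 4405 and 2413 CPM and normal wild-type libraries 500, 549, 527 and 1832 CPM. Normal knockout libraries 1 and 3 stood as high as bleomycin libraries, whereas normal knockout library 2 stood with the normal wild-type libraries. The rows summed averaged 4917 ± 840 CPM in bleomycin knockout, 4542 ± 1878 in bleomycin wild-type, 4012 ± 2474 in normal knockout and 1140 ± 882 in normal wild-type vesicles (SD, n = 4 each). The miR-199b-3p row followed with 1231 ± 222.5, 1146 ± 472, 1007 ± 618 and 288 ± 229 CPM in those same groups.

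miR-199b-5p, the arm named for the Dnm1 locus and close in sequence to miR-199a-5p, had 1968, 2231, 2052 and 3121 CPM in bleomycin knockout libraries. In bleomycin wild-type libraries it had 465, 2144, 1231 and 2566 CPM. It had 2299, 217, 2298 and 1174 CPM in normal knockout and 182, 195, 214 and 737 CPM in normal wild-type libraries. Bleomycin wild-type library 1 was low for this arm, inside the normal wild-type range, while its miR-199a-5p level was above every normal library and its miR-199a-3p level was the second highest of its group. Group means were 2343 ± 530, 1601 ± 940, 1497 ± 1004 and 332 ± 270 CPM for bleomycin knockout, bleomycin wild type, normal knockout and normal wild type (SD, n = 4 each).

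miR-214-3p was scarcer. Bleomycin knockout libraries had 191, 146, 244 and 212 CPM and bleomycin wild-type libraries 302, 180, 414 and 277 CPM, against 178, 51.2, 179 and 88.1 CPM in normal knockout and 33.8, 61.8, 33.3 and 97.8 CPM in normal wild-type libraries. The wild-type groups did not overlap, and the knockout groups overlapped through normal libraries 1 and 3. Its partner arm miR-214-5p had 61.4, 47.0, 70.3 and 52.9 CPM in bleomycin knockout, 52.1, 60.6, 98.5 and 81.8 CPM in bleomycin wild-type, 50.8, 24.7, 42.7 and 29.3 CPM in normal knockout, and 2.74, 28.9, 14.6 and 42.6 CPM in normal wild-type libraries. The wild-type groups did not overlap for this arm either, and normal wild-type library 1 was lowest on 3 reads.

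**Figure D2:**
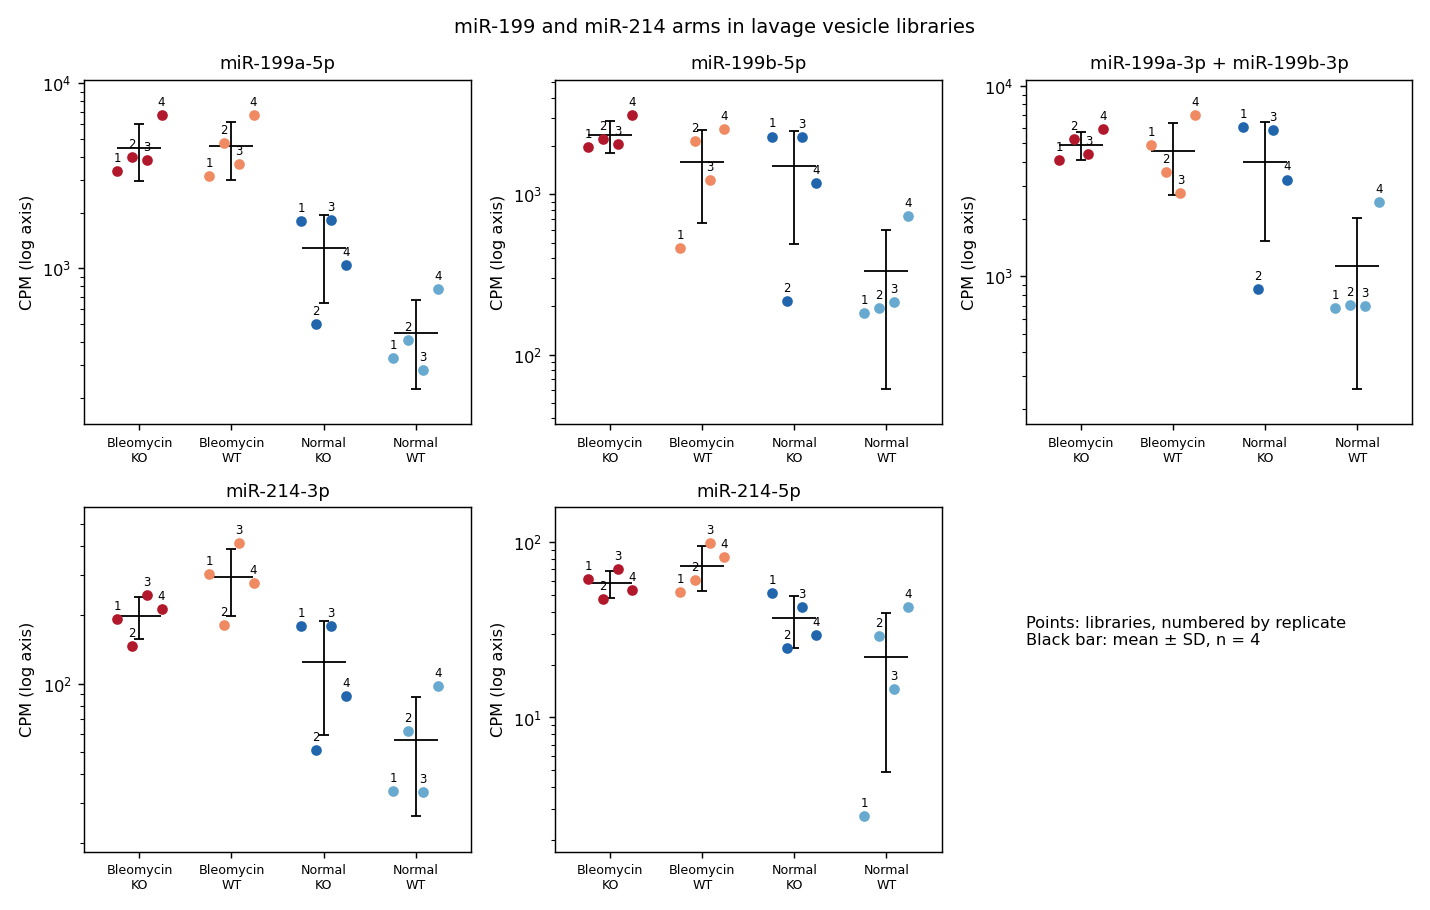
CPM (log axis) of miR-199a-5p, miR-199b-5p, the summed miR-199 3p rows, miR-214-3p and miR-214-5p in the 16 libraries, numbered by replicate, with the group mean and SD (n = 4) as bars. For miR-199a-5p the 8 bleomycin libraries sit above the 8 normal ones, and for the other arms normal knockout library 1 reaches into the bleomycin range while normal knockout library 2 does not.

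In wild-type mice the first question was whether bleomycin changed these arms. All 6 arms were higher in bleomycin than in normal wild-type vesicles and passed the test (limma, Benjamini-Hochberg adjusted p under 0.05 over all 325 miRNAs). Higher calls made up 20% of the 325 miRNAs, lower calls 14.5% and calls in either direction 34.5%, with 65 higher and 47 lower. The median log2 fold change was 2.2 over the 6 arms and -0.0045 over all 325.

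miR-199a-5p rose by 3.39 on the log2 scale of CPM + 5 (SE 0.45, limma adjusted p = 3.87e-05), a 10.5-fold difference that was the 3rd highest rise among the 325 fitted differences. miR-214-3p rose by 2.34 (SE 0.44, limma adjusted p = 0.00064) and its partner miR-214-5p by 1.78 (SE 0.45, limma adjusted p = 0.00554). The increase therefore took in both arms of the Mir214 hairpin. miR-199a-3p rose by 2.14 (SE 0.56, limma adjusted p = 0.00812) and the duplicate miR-199b-3p row by 2.14. miR-199b-5p rose by 2.26 (SE 0.68, limma adjusted p = 0.0192), the weakest call, since bleomycin wild-type library 1 lay inside the normal range. With the 3 thinnest normal libraries left out, by reads, its difference was 1.73 (limma adjusted p = 0.0749), and it lost its call without bleomycin wild-type library 2 or 4 or normal wild-type library 1 or 2 (limma adjusted p 0.0515 to 0.0673). With no filter on low values it also missed the threshold (limma adjusted p = 0.0694). Bleomycin and normal libraries did not overlap for 5 of the 6 arms, against 15.1% of the 325 miRNAs that were higher without overlap and 6.77% that were lower without overlap.

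In Sdc1 knockout mice the same contrast gave 1 call among the 6 arms, where higher calls made up 14.8% of the 325 miRNAs and lower calls 8.62% (48 higher and 28 lower, 23.4% in all). miR-199a-5p rose by 1.91 (SE 0.45, limma adjusted p = 0.00505), a 3.76-fold difference, with no overlap of the 4 bleomycin and 4 normal libraries. It was the only arm without overlap, against 18.5% of the 325 miRNAs that were higher without overlap and 12.3% that were lower. The other arms had positive differences that did not pass the test. These were 1.09 for miR-199b-5p (SE 0.68, limma adjusted p = 0.268) and 0.80 for miR-214-3p (SE 0.44, limma adjusted p = 0.217). They were 0.63 for miR-199a-3p (SE 0.56, limma adjusted p = 0.453) and 0.62 for miR-214-5p (SE 0.45, limma adjusted p = 0.32). The 95% intervals left room for rises, at -0.56 to 1.81 for miR-199a-3p and -0.14 to 1.73 for miR-214-3p. These positive differences leaned on normal knockout library 2. Without it they were 0.32 for miR-199b-5p, 0.45 for miR-214-3p and 0.47 for miR-214-5p. The miR-199 3p rows then differed by 0.00039 (miR-199a-3p) and -0.0088 (miR-199b-3p). The median was 0.71 over the 6 arms and 0.11 over all 325. With log2 reads as a covariate miR-199b-5p also passed (1.56, limma adjusted p = 0.0419), and calls over all miRNAs were then 54 higher and 60 lower.

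A call in wild type and not in knockout does not show that the responses differed, so the difference itself was tested. The knockout response minus the wild-type response was -1.54 for miR-214-3p (SE 0.63, unadjusted p = 0.0244) and -1.48 for miR-199a-5p (SE 0.64, unadjusted p = 0.0329), both with a limma adjusted p of 0.623. It was -1.52 for miR-199a-3p, -1.53 for miR-199b-3p, -1.17 for miR-199b-5p and -1.16 for miR-214-5p, none passing the test. All 6 estimates were negative, with a median of -1.5 where all 325 miRNAs had a median of 0.15. The 6 rows come from the same 16 libraries and the 3p rows are 1 signal, so their shared sign is only a description. Limma called 0% of the 325 miRNAs for this difference (0, with 24 at an unadjusted p under 0.05), and edgeR called 0.

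Averaged over genotypes, all 6 arms were higher with bleomycin by limma, where higher calls made up 23.7%, lower calls 22.2% and calls in all 45.8% of the 325 miRNAs. The averaged log2 difference was 2.65 for miR-199a-5p (SE 0.32, limma adjusted p = 3.1e-06), and between 1.20 for miR-214-5p and 1.68 for miR-199b-5p among the others. With the 3 thinnest normal libraries left out, the averaged differences of miR-199b-5p (1.03), miR-199a-3p (0.85) and miR-199b-3p (0.84) no longer passed the test (limma adjusted p 0.0673 to 0.0781). miR-199a-5p and both miR-214 arms passed in that fit too.

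**Figure D3:**
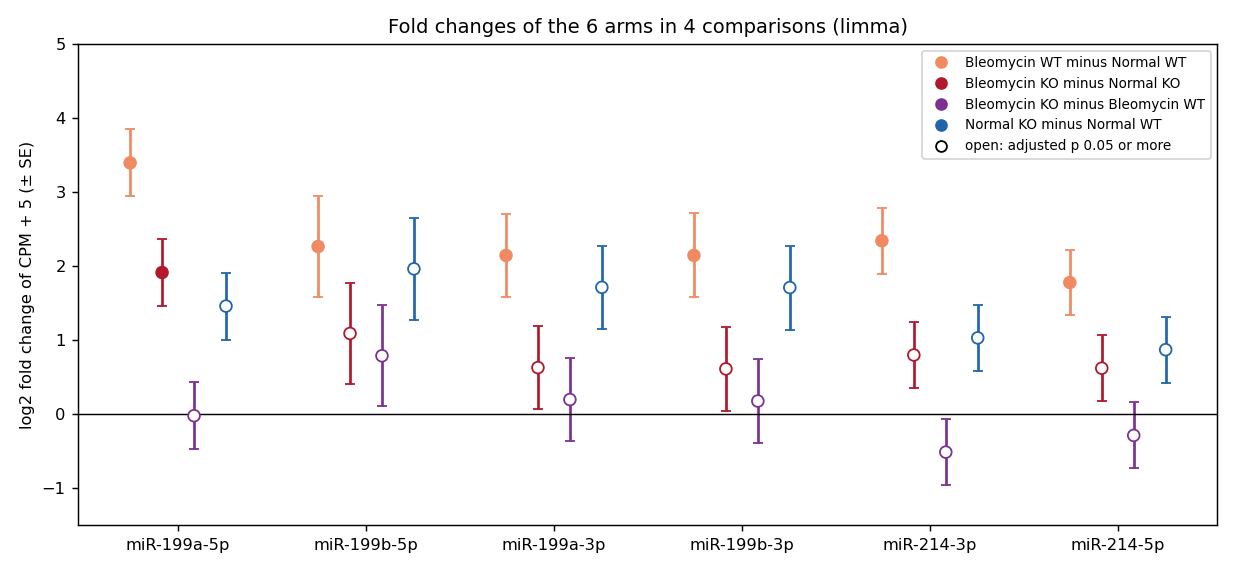
Log2 fold change of CPM + 5 with its SE for the 6 arms in 4 comparisons from limma; filled points passed the adjusted threshold of 0.05 and open points did not. Bleomycin minus normal in wild type is filled for all 6 arms, from 1.78 to 3.39, and in knockout for miR-199a-5p only (1.91), while no knockout minus wild-type point is filled.

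In normal, uninjured mice the comparison was of knockout with wild type. No arm passed the test, and limma called 0% of the 325 miRNAs (0, with 58 at an unadjusted p under 0.05, and 0 by edgeR). Among the fitted differences toward higher levels in knockout, 3 rows of this family headed the 325 miRNAs, the miR-199 3p rows being 1 signal. Some miRNAs differed by more in the other direction, among them the epithelial miR-375-3p (-2.09) and miR-205-5p (-1.99). Over the 11 epithelial miRNAs listed the median difference was -0.22, and 0 of them passed the test. miR-199b-5p was 1.96 higher in normal knockout on the log2 scale (SE 0.68), 1st of 325 among positive differences, and miR-199a-3p (1.71, SE 0.56) and miR-199b-3p (1.71, SE 0.57) were 2nd and 3rd in that order. miR-199a-5p differed by 1.46 (SE 0.45), all 4 with a limma adjusted p of 0.222. miR-214-3p differed by 1.03 (SE 0.44, limma adjusted p = 0.266) and miR-214-5p by 0.87 (SE 0.45, limma adjusted p = 0.282). Knockout and wild-type libraries overlapped for each of the 6 arms, where 1.85% of the 325 miRNAs were higher and 2.15% lower in knockout without overlap. For each arm normal knockout library 2 lay below normal wild-type library 4.

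One library weighed heavily here. Without normal knockout library 2, limma called 64 of the 325 tested miRNAs, 38 higher and 26 lower in knockout. Among the higher ones were 5 of the 6 arms, of which the miR-199 3p rows are 1 signal. miR-199b-5p was then 2.72 higher in normal knockout, miR-199a-3p 2.34, miR-199b-3p 2.33 and miR-199a-5p 1.85, each with a limma adjusted p of 0.00983. miR-214-3p was 1.37 higher (limma adjusted p = 0.0354), and miR-214-5p did not pass (limma adjusted p = 0.124). Each library was left out in turn, and leaving out any other gave 0 calls. No label marks normal knockout library 2 as faulty.

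Read depth moved with the arms in the normal libraries. The 3 normal libraries with the fewest reads were wild-type library 1 (1094908), wild-type library 2 (2556707) and knockout library 2 (2753095). miR-199a-3p lay between 500 and 639 CPM in those 3 and between 527 and 4564 CPM in the other 5, and miR-199b-5p between 182 and 217 against 214 and 2299 CPM. With log2 reads as a covariate the knockout minus wild-type difference in normal mice was 1.29 for miR-199b-5p, 1.04 for miR-199a-3p and 1.09 for miR-199a-5p, each with a limma adjusted p of 0.757. Without those 3 libraries it was 2.19 for miR-199b-5p, 1.88 for miR-199a-3p and 1.68 for miR-199a-5p, each with a limma adjusted p of 0.145. Normal wild-type library 3, with 9062406 reads, was as low as the thin libraries, so depth and level did not go together in every library.

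**Figure D4:**
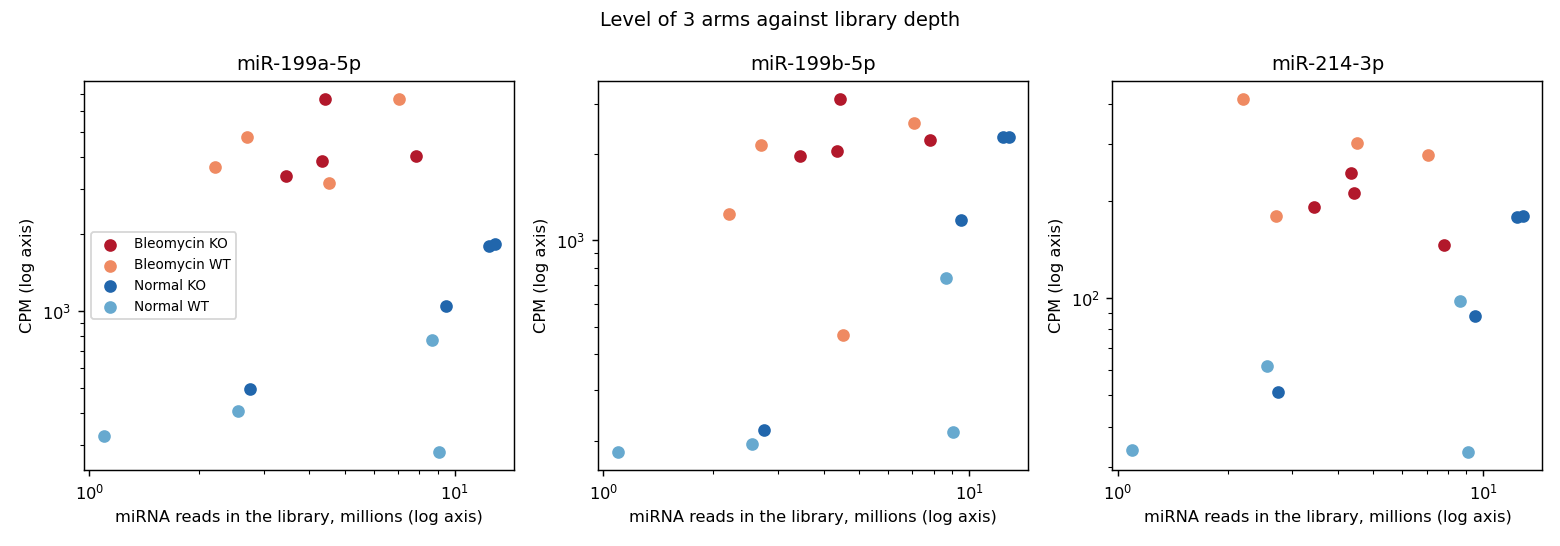
CPM (log axis) of miR-199a-5p, miR-199b-5p and miR-214-3p against the miRNA reads in each library (log axis), coloured by group. Among normal libraries the 3 thinnest, at 2753095 reads or fewer, are low, normal knockout libraries 1 and 3, at 12395166 and 12837837 reads, are high, and normal wild-type library 3 is low at 9062406 reads, while bleomycin libraries are high at all depths for miR-199a-5p.

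In bleomycin-treated mice, knockout and wild-type levels were close for most arms. The knockout minus wild-type difference was -0.02 for miR-199a-5p (95% interval -0.98 to 0.93), 0.19 for miR-199a-3p (-0.99 to 1.38) and 0.79 for miR-199b-5p (-0.65 to 2.22). It was -0.52 for miR-214-3p (-1.45 to 0.42) and -0.29 for miR-214-5p (-1.23 to 0.65). None of the 6 arms passed the limma test, and the libraries of the groups overlapped for each, where 3.08% of the 325 miRNAs were higher and 2.15% lower in knockout without overlap. Over all 325 miRNAs 0.615% were called, the identical rows of the leukocyte miR-142a-3p and miR-142b. The intervals reached near 2-fold in either direction for miR-199a-5p and miR-199a-3p, so differences of about that size could have been missed. For miR-199b-5p they left room for a rise beyond 2-fold. For the miR-214 arms they left room for a fall beyond 2-fold but not for a 2-fold rise.

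Averaged over injury states, limma called no miRNA for knockout minus wild type (0%, with 67 at an unadjusted p under 0.05, and 0 by edgeR). The arms differed by 1.37 for miR-199b-5p (limma adjusted p = 0.196), 0.95 for miR-199a-3p, 0.72 for miR-199a-5p, 0.29 for miR-214-5p and 0.26 for miR-214-3p. Without normal knockout library 2 the miR-199 differences passed the test, at 1.75 for miR-199b-5p, 1.27 for miR-199a-3p, 1.25 for miR-199b-3p and 0.92 for miR-199a-5p (limma adjusted p 0.016 to 0.0474), and 37 miRNAs were called.

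Ratios of CPM between arms within a library do not depend on its total. The tested ratios had 5 CPM added to each arm, which leaves some dependence for scarce arms such as miR-214-5p. Across 4 ratios and both effects, 8 exact permutation tests were made, two-sided, with bleomycin and normal labels exchanged within genotype, or knockout and wild-type labels within injury state, on the log2 scale of CPM + 5. Each exact test had 4900 arrangements, and the smallest permutation p it could give was 0.000408.

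The ratio of the miR-199a-5p row to the miR-199a-3p row differed with bleomycin. The miR-199a-3p row can also hold Mir199b reads, so this ratio does not give the arm balance of the miR-199a hairpins alone. miR-199a-5p over miR-199a-3p was 1.10, 1.02, 1.15 and 1.51 in bleomycin knockout libraries and 0.864, 1.81, 1.79 and 1.28 in bleomycin wild-type libraries. It was 0.394, 0.778, 0.414 and 0.433 in normal knockout and 0.655, 0.743, 0.534 and 0.422 in normal wild-type libraries. No bleomycin library overlapped a normal one. The log2 ratio was 1.27 higher with bleomycin, 1.29 in knockout and 1.25 in wild type, at the smallest p these permutations allow (exact p = 0.000408, adjusted over the 8 tests 0.00163). Between knockout and wild type it differed by -0.24 (exact permutation adjusted p = 0.272).

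Because the 3p rows also carry Mir199b reads, both 5p rows were set over both 3p rows, an alternative added after seeing the data. That ratio averaged 1.37 ± 0.202 in bleomycin knockout, 1.45 ± 0.545 in bleomycin wild-type, 0.724 ± 0.0746 in normal knockout and 0.728 ± 0.0971 in normal wild-type vesicles (SD, n = 4 each). The log2 ratio was 0.91 higher with bleomycin (exact permutation adjusted p = 0.0049). Bleomycin wild-type library 1, at 0.743, lay inside the normal range, and the other 7 bleomycin libraries lay above it. That library is also the one with a low miR-199b-5p level.

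miR-199a-5p over miR-214-3p averaged 23.1 ± 7.72 in bleomycin knockout, 17.5 ± 9.19 in bleomycin wild-type, 10.5 ± 0.952 in normal knockout and 8.16 ± 1.27 in normal wild-type vesicles (SD, n = 4 each). The log2 ratio was 1.08 higher with bleomycin (exact permutation adjusted p = 0.00163). In wild type the bleomycin values split, with 26.6 and 24.3 in libraries 2 and 4 and 10.5 and 8.80 in libraries 1 and 3. Library 3 lay inside the normal wild-type range, 6.60 to 9.68. Library 1 lay above that range but below normal knockout library 4, at 11.9. miR-199a-5p, which Mir199a-1 also yields, and miR-214-3p therefore did not move in a fixed proportion. The difference between knockout and wild type was 0.46 (exact permutation adjusted p = 0.116), and 0.59 without bleomycin wild-type library 2 (exact permutation adjusted p = 0.0496).

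miR-199a-5p over miR-199b-5p averaged 1.88 ± 0.193 in bleomycin knockout, 3.65 ± 2.12 in bleomycin wild-type, 1.19 ± 0.736 in normal knockout and 1.57 ± 0.470 in normal wild-type vesicles (SD, n = 4 each). The log2 ratio was 0.98 higher with bleomycin (exact permutation adjusted p = 0.012) and -0.66 in knockout relative to wild type (exact permutation adjusted p = 0.0612). The knockout difference passed without bleomycin wild-type library 2, normal knockout library 2 or normal wild-type library 4 (exact permutation adjusted p 0.00245 to 0.049). After bleomycin the 4 knockout libraries, 1.70 to 2.15, lay below the 4 wild-type libraries, 2.23 to 6.80. In normal mice, knockout libraries 1, 3 and 4 lay at 0.782 to 0.889, below all wild-type libraries, and knockout library 2 at 2.29 lay above them.

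For the arms of the single miR-214 hairpin no difference in ratio passed the test. miR-214-3p over miR-214-5p averaged 3.43 ± 0.428 in bleomycin knockout, 4.09 ± 1.25 in bleomycin wild-type and 3.19 ± 0.893 in normal knockout vesicles (SD, n = 4 each). In normal wild-type libraries it was 12.3, 2.14, 2.29 and 2.30, the first resting on 3 reads of miR-214-5p. The log2 ratio differed by 0.37 with bleomycin (exact permutation adjusted p = 0.162) and by -0.03 between knockout and wild type (exact permutation adjusted p = 0.882).

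**Figure D5:**
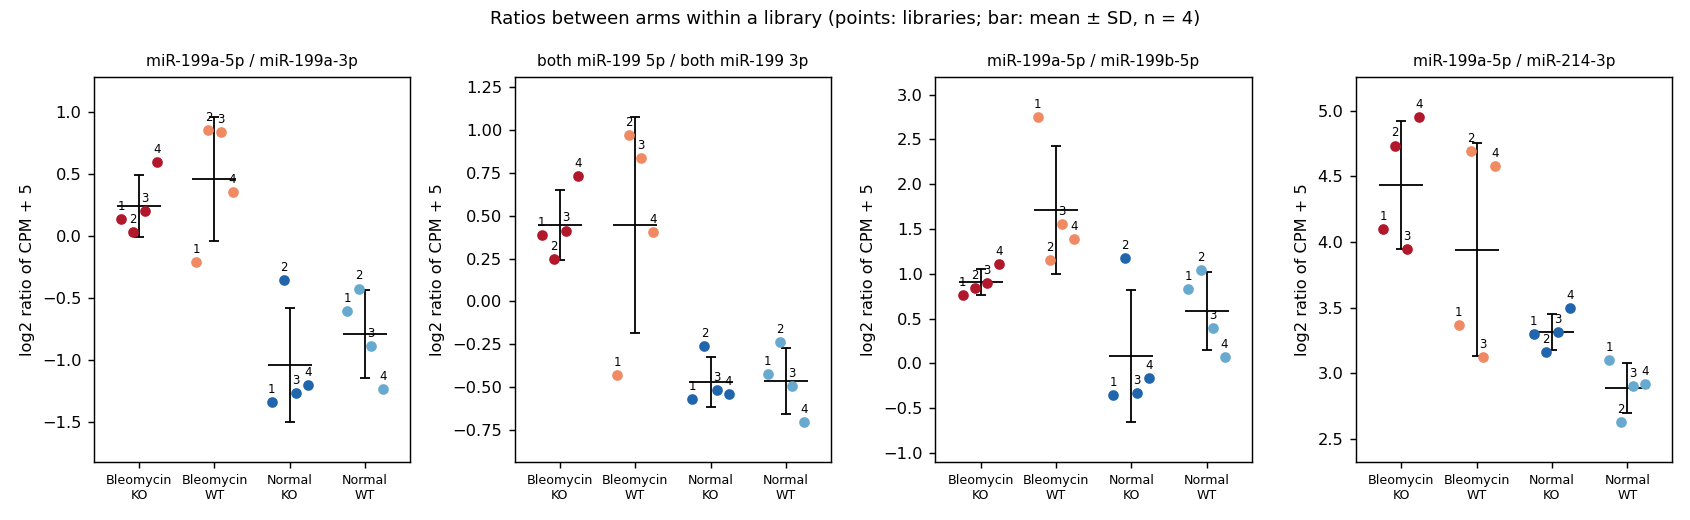
Log2 ratios of CPM + 5 within each library for miR-199a-5p over miR-199a-3p, both 5p rows over both 3p rows, miR-199a-5p over miR-199b-5p and miR-199a-5p over miR-214-3p, with group mean and SD (n = 4). In the first panel all bleomycin libraries, knockout and wild type, lie above all normal libraries.

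The miRNAs with profiles most like these arms were listed by the root mean square difference of log2(CPM + 5), centred on each miRNA's mean over the 16 libraries. Closest to miR-199a-5p was miR-218-5p at 0.40, then miR-132-3p at 0.54, let-7i-5p and miR-653-5p at 0.70 each and miR-455-5p at 0.75. The median of all other tested miRNAs was 1.63, and the arms of its own family lay at 0.72 to 0.93. miR-218-5p, whose genes lie in the Slit2 and Slit3 loci, was 3.40 higher with bleomycin in wild type (limma adjusted p = 0.00016) and 1.98 higher in knockout (limma adjusted p = 0.0119). miR-132-3p was 2.82 and 2.30 higher in wild type and knockout (limma adjusted p = 4.24e-05 and 0.000333).

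Closest to miR-214-3p was miR-455-5p at 0.39, a miRNA of a collagen gene locus (Col27a1), with the partner arm miR-214-5p at 0.45. miR-149-5p followed at 0.55, miR-298-5p at 0.57, let-7i-5p at 0.59 and miR-139-5p at 0.60, where the median of all others was 1.16. The miR-199 rows lay farther off, at 0.63 (miR-199a-3p), 0.64 (miR-199b-3p), 0.72 (miR-199a-5p) and 0.95 (miR-199b-5p). miR-298-5p averaged only 6.42 CPM, near the added 5, which compresses its profile. miR-455-5p was 1.91 higher with bleomycin in wild type (limma adjusted p = 0.00185) and differed by 0.85 in knockout (limma adjusted p = 0.157). These likenesses are over the same 16 libraries that share depth and group, and are descriptions.

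Other miRNAs known from mesenchymal and smooth muscle cells numbered 12. In wild type 3 of 12 were higher with bleomycin and 0 lower (limma), where 20% of all 325 were higher and 14.5% lower, with a median log2 difference of 0.09 against -0.0045 for all 325. The 3 were miR-100-5p (1.92, limma adjusted p = 0.0224), miR-10b-5p (1.61, limma adjusted p = 0.0243) and miR-152-3p (1.04, limma adjusted p = 0.0233). miR-143-3p, the smooth muscle miRNA that is the most abundant of the list, differed by -0.54 (limma adjusted p = 0.354), miR-99a-5p by 0.20 (limma adjusted p = 0.731) and miR-140-3p, known from cartilage, by -0.21 (limma adjusted p = 0.772). In knockout none of the 12 passed the test, where 23.4% of all 325 did, with a median of -0.57 against 0.11 for all 325. The summed share of the list was 4.98 ± 0.400% of reads in bleomycin knockout, 5.93 ± 0.654% in bleomycin wild-type, 8.78 ± 5.49% in normal knockout and 6.82 ± 2.01% in normal wild-type vesicles (SD, n = 4 each).

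Of 14 other miRNAs linked with fibrosis, 3 were higher and 2 lower with bleomycin in each genotype (limma). Over all 325 miRNAs 14.8% were higher and 8.62% lower in knockout, and 20% higher and 14.5% lower in wild type, so these few calls are no result about the list. In both genotypes the higher ones were miR-21a-5p, miR-34a-5p and miR-155-5p. miR-21a-5p, known to act on Smad7 in lung fibroblasts, was 2.74 higher in knockout and 2.76 higher in wild type. The lower ones were miR-30a-5p (-1.54) and miR-26a-5p (-1.07) in knockout, and miR-30a-5p (-1.68) and the epithelial miR-200a-3p (-2.68) in wild type. The list median was -0.15 in knockout and -0.06 in wild type.

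Markers of other source cells are given beside those same shares of all 325 miRNAs. Of 11 epithelial miRNAs, 1 was higher (miR-203-3p) and 1 lower (miR-141-3p) with bleomycin in knockout, no more than the 23.4% called over all miRNAs. In wild type 5 were lower (miR-200a-3p, miR-141-3p, miR-205-5p, miR-375-3p and miR-34c-5p) and 0 higher. Their summed share was 3.91 to 7.24% of reads in bleomycin knockout, 2.14 to 6.57% in bleomycin wild-type, 6.01 to 8.33% in normal knockout and 6.84 to 11.9% in normal wild-type libraries. Of 7 leukocyte miRNAs, 5 were higher in knockout (miR-142a-3p, miR-150-5p, miR-155-5p, miR-146a-5p and miR-147-3p). In wild type 3 were higher (miR-147-3p, miR-150-5p and miR-155-5p) and 1 lower (miR-223-3p, a neutrophil and macrophage miRNA). Their share was 0.112 to 0.267% in bleomycin knockout, 0.0824 to 0.471% in bleomycin wild-type, 0.0499 to 0.0779% in normal knockout and 0.0636 to 0.108% in normal wild-type libraries.

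Of 5 erythrocyte miRNAs, 3 were tested, and 1 was called with bleomycin, miR-451a, higher in knockout (2.89) and in wild type (2.38). No other erythrocyte miRNA passed in either genotype. The median over the 3 tested was 1.69 in knockout and 0.17 in wild type. miR-144-3p was at 0 in 5 of 16 libraries. The erythrocyte share was 0.105 to 0.475% in bleomycin knockout, 0.0558 to 1.28% in bleomycin wild-type, 0.0098 to 0.347% in normal knockout and 0.0341 to 0.576% in normal wild-type libraries. The endothelial miR-126a-3p was higher with bleomycin in wild type (1.96, limma adjusted p = 0.0237) and differed by 0.05 in knockout (limma adjusted p = 0.966), and miR-126a-5p passed in neither. The endothelial share was 0.0977 to 0.22% in bleomycin knockout, 0.107 to 0.315% in bleomycin wild-type, 0.0407 to 0.365% in normal knockout and 0.0342 to 0.123% in normal wild-type libraries. The part of these markers in the miR-199 and miR-214 differences was not tested.

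The table was also rescaled to a total without miR-21a-5p. That moved the median of all 325 miRNAs by 0.35 in wild type and 0.33 in knockout. Calls with bleomycin were then 86 higher and 34 lower in wild type, against 65 and 47 before, and 78 higher and 19 lower in knockout, against 48 and 28. Relative to the median of all miRNAs the 6 arms then differed by 1.79 to 3.42 in wild type and by 0.55 to 1.86 in knockout, close to 1.78 to 3.40 and 0.50 to 1.80 with the deposited scaling. miR-214-3p passed the test in knockout under that scaling (1.18, limma adjusted p = 0.0475).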

How the data were processed

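The authors deposited 1 table of CPM per mature miRNA for the 16 vesicle libraries, and per the labels' protocols RNA was isolated from lavage vesicles with a QIAGEN kit. Per the submitters' processing notes, the tool Bowtie2 2.2.3 was used in a role not stated, and the build named, GRCh38, is a human one. The sources used here do not give the counting, the trimming or the rule that split identical arms. Dividing each column by its smallest step gave whole reads for 100% of values within 0.001, a depth of 1094908 to 12837837 per library at which 1 read is worth 0.0779 to 0.913 CPM. Groups came from the labels. Filtering for 10 CPM in 4 or more libraries left 325 miRNAs, and their log2(CPM + 5) was fitted with limma 3.58.1 (R 4.3.3, trend, 4 group means, 12 residual degrees of freedom) in 7 comparisons, each Benjamini-Hochberg adjusted at 0.05. Adding 5 understates changes of scarce miRNAs. Ratios were tested by exact permutation (NumPy 2.4.6), and the binomial intervals came from SciPy 1.17.1. Alternatives were the quasi-likelihood test of edgeR 4.0.16 with those reads, other pseudocounts (1 and 20), filters, scalings, a replicate block, a depth covariate and leaving out libraries. Named miRNAs were the 6 arms, seed mates, the 5 nearest profiles to 2 arms, and up to 4 or all called members of 6 lists. The scripts were tested on simulated data. Members and lists were chosen with earlier results of these data known. No within-group pair of libraries agreed within sampling noise.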

Additional observations from a re-analysis of the deposited data

Results flagged for a closer look

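Within the 4 libraries of a group, 44 sets of values (arms and ratios) were checked for a highest or lowest library far from the others, and 8 were picked out; chance picks out about 1 in 20. Normal wild-type library 4 stood above its group for miR-199a-3p (1832 CPM), miR-199b-5p (737 CPM) and miR-199b-3p (631 CPM), of which the 3p rows are 1 signal. Normal knockout library 2 stood above its group for miR-199a-5p over miR-199a-3p (0.778), for miR-199a-5p over miR-199b-5p (2.29) and for both 5p rows over both 3p rows (0.835). Bleomycin wild-type library 1 stood above its group for miR-199a-5p over miR-199b-5p (6.80). Normal wild-type library 1 had a miR-214-3p over miR-214-5p ratio of 12.3 on 3 reads of miR-214-5p. The causes were not tested.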

How the results depend on the processing

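miR-199a-5p passed the test for bleomycin in both genotypes under every alternative run, at log2 differences of 3.19 to 3.69 in wild type and 1.51 to 2.14 in knockout with 1 library left out. Counts of calls moved. Bleomycin in wild type gave 60 with a filter at 100 CPM, 67 without the 3 thinnest normal libraries and 74 to 134 with 1 library left out, against 112; in knockout 38 with the 100 CPM filter, against 76; averaged 81 with that filter, against 149. The stricter filter tests fewer miRNAs. Knockout in normal mice gave 0 to 64 calls with 1 library left out. Knockout after bleomycin gave 0 with CPM + 1, the 100 CPM filter, only the 8 libraries compared, the replicate block and edgeR, 4 with no filter, and 0 to 3 with 1 library left out, against 2. The interaction gave 2 with the total without miR-21a-5p, 2 with the depth covariate and 0 to 2 with 1 library left out. Averaged knockout gave 1 with CPM + 20, 1 without the 3 thinnest normal libraries and 0 to 37 with 1 library left out.

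The ratio miR-214-3p over miR-214-5p differed with bleomycin by 0.54 with CPM + 20 and by 0.27 to 0.53 with 1 library left out, passing the test in the first and without normal wild-type library 1 (exact permutation adjusted p = 0.022 and 0.04). Its knockout difference changed sign, to 0.057 with CPM + 20, 0.22 without the 3 thinnest normal libraries and between -0.11 and 0.13 with 1 library left out. The knockout difference of miR-199a-5p over miR-199b-5p passed at -0.64 with CPM + 20 and at -0.66 without the 3 thinnest, and ran from -0.84 to -0.48 with 1 library left out, passing in 3 of those fits. That of miR-199a-5p over miR-214-3p ran from 0.32 to 0.59, passing in 1. Single arms changed sign near 0: miR-199b-3p for bleomycin in knockout (-0.0088 without the 3 thinnest, -0.0088 to 0.92 with 1 left out), and, after bleomycin, knockout minus wild type of miR-199a-5p (-0.24 to 0.18), miR-199a-3p (-0.095 by edgeR, -0.036 with the covariate, -0.021 to 0.43) and miR-199b-3p (-0.10, -0.049, -0.037 to 0.41). The causes were not tested.

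The labels give replicate numbers without stating a pairing, so the numbers were taken as names. Deviations from the group means correlated from -0.58 to 0.80 between same-numbered libraries. Differently numbered libraries were not compared in this way, so these correlations cannot decide on a pairing. With the replicate block, bleomycin gave 105 calls in wild type and 72 in knockout, and no call of an arm was lost. Under the block the knockout differences of miR-199a-5p over miR-199b-5p (-0.66, exact permutation adjusted p = 0.0313) and over miR-214-3p (0.46, 0.0208) passed. Depth limits miR-214-5p most, at 3 reads in the thinnest library.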
